A study of Mus musculus with 36 samples.

Results

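Peripheral blood taken at week 4 was compared with blood taken at week 2 in Townes sickle cell mice that received MIR29B, to follow which of the early changes in RNA persisted, grew or faded. The 12 libraries compared were those whose titles name week 4 or week 2 and MIR29B, out of 36 in the series. They formed 4 groups of 3: week 4 at 2 mg/kg, week 4 at 3 mg/kg, week 2 at 2 mg/kg and week 2 at 3 mg/kg. The series also holds MIR29B libraries labelled week 0 (6 libraries) and a scrambled control arm with the same doses and weeks (18 libraries). All mice were Townes sickle cell mice, a transgenic line that makes human sickle hemoglobin in place of mouse hemoglobin. Both agents were given by mini-osmotic pump, and globin mRNA was depleted before sequencing. Whether week 0 blood preceded dosing is not in the labels, and neither is whether each library stands for its own animal. The p-values below therefore measure the spread between these samples, which may be technical in part.

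MIR29B is a cholesterol-modified microRNA of the miR-29 family, whose members bind transcripts through a shared seed and lower them. DNA methyltransferases are among the known targets of the family, and the title of the series names DNMT3A and fetal hemoglobin. Sickle cell disease combines chronic hemolysis, which keeps young red cells in the blood, with activated neutrophils and monocytes. NF-kappa-B is a transcription factor that drives inflammatory genes in such white cells and also its own inhibitors, among them Nfkbia, which limit the response in time.

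The sequences that define the agent and its named target are shown first, since the question of persistence includes the target. The mature mouse miR-29b-3p is given from RefSeq on GRCm38.p6, with its seed (bases 2 to 8) in capitals, at chr1:195037091-195037113 on the plus strand for the Mir29b-2 copy. Each target site is a 30-base stretch of a 3′ UTR in GENCODE on GRCm38, read on the strand of the gene, with the 8-letter site in capitals, which is the complement of the seed followed by an A. The Dnmt3a site lies at chr12:3911394-3911423 on the plus strand, the Tet2 site at chr3:133466162-133466191 on the minus strand and the Mcl1 site at chr3:95661848-95661877 on the plus strand.
mmu-miR-29b-3p: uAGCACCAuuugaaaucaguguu
Dnmt3a: ggggaggtagcTGGTGCTAgcaccagggtc
Tet2: ttaacattaaaTGGTGCTAcaaatggtgtt
Mcl1: agtcttaaccaTGGTGCTAttcactgggtt

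The 12 libraries held 22.29 to 45.65 M counts, of which 14.57 to 31.72 M fell on 1 transcript per gene, and 8392 to 10626 genes had at least 10 counts. The label erythrocytes was set against marker genes. Alas2, which starts heme synthesis in developing red cells, ranged from 105000 to 149000 CPM (library-scaled counts, with TMM factors). The red cell anion exchanger Slc4a1 ranged from 1880 to 9750 CPM. White cell and platelet transcripts were also counted: the neutrophil gene S100a9 had a median of 306 CPM, the myeloid gene Lyz2 315 CPM, the B cell gene Cd79a 53.1 CPM, the T cell gene Cd3e 6.14 CPM and the platelet gene Pf4 46.6 CPM. In such bulk blood RNA, fewer cells of a type and less RNA per cell cannot be told apart. Ribosomal RNA took 0.66% to 7.3% of the counts, and the highest shares were those of week 2 at 2 mg/kg, replicate 2 (7.3%) and replicate 3 (4.55%). By sex-linked transcripts, Xist was the higher in 4 of 6 libraries at week 4, in 2 of 6 at week 2 and in 2 of 6 at week 0. Week 4 thus differed in this respect from both other weeks. At weeks 0 and 2 Xist was the higher in replicate 1 of both doses, and Y-linked transcripts in replicates 2 and 3. Whether those weeks share animals is not known, and the fits treated all libraries as independent. In replicate 2 of both doses Y-linked transcripts were the higher at week 2 and Xist at week 4, and replicate numbers were not used to pair the weeks.

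Across all genes, no transcript passed the test between week 4 and week 2. Of 11953 genes tested with edgeR's quasi-likelihood F test averaged over both doses, 0 were called at an adjusted p under 0.05, a percentage of 0.0, and the smallest adjusted p was 0.183. At an unadjusted p under 0.05 there were 747 genes on the higher side at week 4 (6.25%) and 573 on the lower side (4.79%). DESeq2 called 42 of the 7317 genes to which it gave an adjusted p (0.574%), 38 higher (0.519%) and 4 lower (0.0547%) at week 4. In simulated counts of the same design, the test recovered 81 of 100 genes changed 4-fold and 12 of 100 changed 2-fold. Changes near 2-fold were thus mostly missed even there. The changed genes had a mean of at least 1 CPM. The simulated libraries carried no differences tied to GC content, transcript length, ribosomal RNA or sex, so recovery in the real libraries and at lower levels was not measured. No gene was called as changing differently between the doses by edgeR, with 0 of 11953 called and 240 at an unadjusted p under 0.05 (1.06% higher and 0.945% lower at 3 mg/kg), and DESeq2 called 0.

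The early response, week 2 against week 0 in the MIR29B arm, set the genes whose course was followed. It comprised 650 called genes (5.44% of those tested), of which 412 rose (3.45%) and 238 fell (1.99%). A gene was said to persist if week 4 did not differ from week 2 by the test and still differed from week 0 in the same direction. It was said to fade or to grow if week 4 against week 2 was called against or along the early direction, and was otherwise undecided. By these rules 217 genes persisted and 433 were undecided. Fading and growing need a call between week 4 and week 2, of which edgeR made 0, so neither could occur here; with DESeq2 29 genes faded and 1 grew. At week 4 against week 0, 369 genes were called (3.09%), 316 higher (2.64%) and 53 lower (0.443%). The early comparison and that of week 4 with week 2 share the week 2 libraries, and the later one with week 0 shares the rest, so their values are given side by side and no overlap between them is a result.

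Genes that rose early had a median nearly as far above week 0 at week 4 as at week 2, and genes that fell early had one nearer to week 0 at week 4, a difference that was smaller with offsets for GC content and length. Of the 412 that rose, 196 persisted, and the median log2 difference from week 0 was 1.29 at week 2 and 1.08 at week 4. Of the 238 that fell, 21 persisted, and the medians were -1.35 at week 2 and -0.69 at week 4. In the scrambled arm the genes that rose had medians against week 0 of 0.73 at week 2 and 0.56 at week 4. Those that fell had -0.88 and -0.38 there. Between week 4 and week 2 of the MIR29B arm, the genes that rose had a median log2 fold change of -0.16. Of them, 78 were at an unadjusted p under 0.05 on the lower side and 16 on the higher side, beside 4.79% and 6.25% of all genes. The genes that fell had a median of 0.75, with 118 on the higher side and 0 on the lower side. Since the week 2 libraries chose these genes, a move back toward week 0 is in part built into the choice. The week 0 libraries chose them too, so a distance from week 0 at week 4 is also in part built in. The genes that rose had a median GC content of 56.2% and those that fell one of 41.8%, beside 50.2% for all genes. With offsets for GC content and length, the medians against week 0 were 1.03 at week 2 and 0.89 at week 4 for the genes that rose, and -0.97 at week 2 and -0.72 at week 4 for those that fell. Between week 4 and week 2 they became -0.04 and 0.27. The part of base composition in these differences was otherwise not tested.

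Genes called early in the scrambled arm were chosen without any of the 12 libraries compared here. The scrambled arm called 384 early genes (3.21%), a count that was 37 with ribosomal RNA share as a term and ranged from 42 to 950 with 1 scrambled library left out. It was 170 and 82 without replicates 1 and 3 of week 0 at 2 mg/kg, and 68 and 42 without replicates 1 and 2 of week 0 at 3 mg/kg. It was 950, 588 and 44 without replicates 1, 2 and 3 of week 2 at 2 mg/kg, and 161 and 677 without replicates 1 and 3 of week 2 at 3 mg/kg. Its 252 early genes that rose (2.11%) had a median log2 fold change of -0.30 between week 4 and week 2 in the MIR29B arm, and 174 of them were lower at week 4. Of the 252, 44 reached an unadjusted p under 0.05 on the lower side and 8 on the higher side, beside 4.79% and 6.25% of all genes. Its 132 early genes that fell (1.1%) had a median of 0.50, and 113 of them were higher at week 4, 45 at an unadjusted p under 0.05 against 1 on the lower side. No single gene of either set was called between week 4 and week 2. The arms also shared a difference between the weeks in base composition. The median level of the highest GC decile minus that of the lowest was 0.52 at week 2 and -0.13 at week 4 in the MIR29B arm (medians of libraries). It was 0.53 and -0.15 in the scrambled arm. The part of this shared difference in the moves of these genes was not tested.

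The order of the libraries can be read from the median of the early genes in each, relative to the mean of the week 0 libraries of its arm. For the genes that rose, the 6 week 4 libraries lay between 0.68 and 1.14 on the log2 scale and the 6 week 2 libraries between 0.99 and 1.32. The weeks overlapped, and all 12 libraries were above every week 0 library of both arms, the highest of which was at 0.22. The week 0 and week 2 libraries of this arm chose these genes. The distance at week 2 is therefore built into the choice, and that at week 4 in part, through the shared week 0 libraries. For the same genes, scrambled libraries lay between 0.06 and 1.2 at week 2 and between 0.35 and 0.78 at week 4. For the genes that fell, MIR29B libraries lay between -0.95 and -0.34 at week 4 and between -1.47 and -0.90 at week 2. One week 4 library, replicate 1 at 3 mg/kg with -0.95, reached into the week 2 range.

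**Figure D1:**
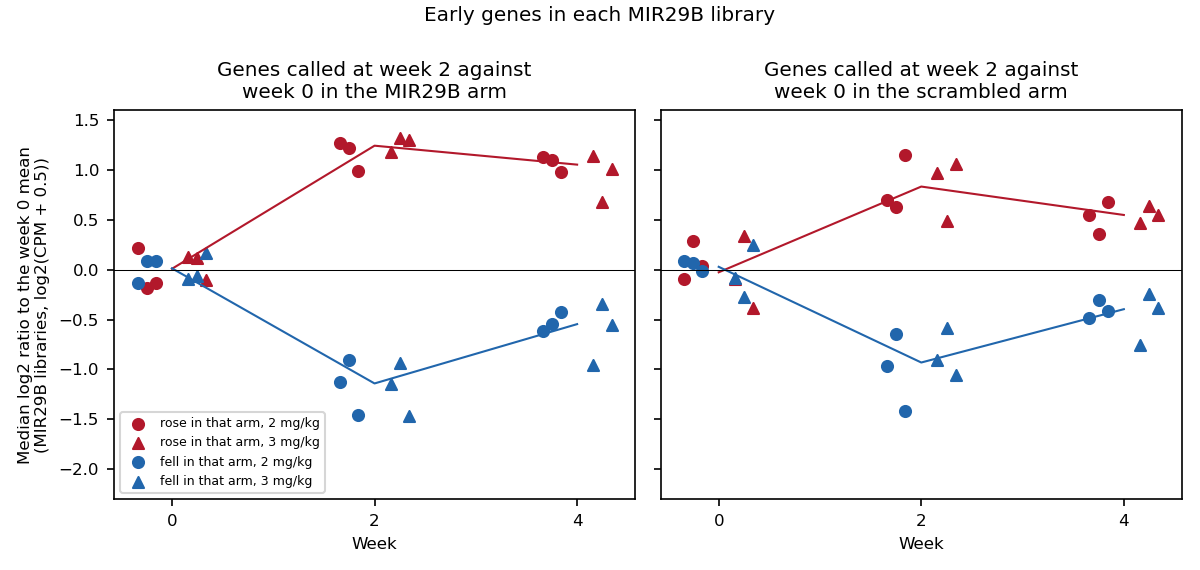
Median log2 ratio to the week 0 mean in each of the 18 MIR29B libraries (circles 2 mg/kg, triangles 3 mg/kg). Genes rose (red) or fell (blue) early in the MIR29B arm (left) or in the scrambled arm (right). Lines join the medians of the libraries of each week. On the left, week 4 libraries lie between 0.68 and 1.14 for the genes that rose, and between -0.95 and -0.34 for those that fell.

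The 6 persisting genes with the largest early change were Acod1, Maff, Snai1, B3gnt7, Saa3 and Cd80, and 4 of them had a higher mean at week 4 than at week 2. Maff, a small MAF transcription factor induced by inflammatory stimuli, had 0.0, 0.154 and 0.383 CPM (lowest, median and highest of 6 libraries) at week 0, 3.01, 6.08 and 9.09 CPM at week 2, and 5.84, 11 and 25.4 CPM at week 4. Both later weeks were above every week 0 library and overlapped each other. Its log2 fold change was 5.24 ± 0.54 (SE) at week 2 against week 0 (edgeR adjusted p = 3.64e-07) and 0.96 ± 0.40 at week 4 against week 2 (adjusted p = 0.39). Acod1, the enzyme that makes itaconate in activated myeloid cells, had 0.0, 0.0959 and 0.531 CPM at week 0, 0.935, 7.77 and 31.0 CPM at week 2, and 4.51, 22.2 and 104.0 CPM at week 4. The spread within a week was wide, and week 4 against week 2 gave 1.20 ± 0.71 (adjusted p = 0.526). Snai1, a transcriptional repressor, averaged 2.95 ± 1.14 CPM at week 4 and 1.47 ± 0.664 CPM at week 2 (SD, n = 6 each), after only 6 counts in all week 0 libraries. Cd80, a costimulatory ligand for T cells, averaged 2.24 ± 1.61 CPM at week 4 and 0.668 ± 0.349 CPM at week 2, a log2 fold change of 1.56 ± 0.54 with an edgeR adjusted p of 0.323. Saa3, an acute phase protein, and B3gnt7, a glycosyltransferase, lay the other way, at -0.93 ± 0.72 and -0.33 ± 0.73.

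The fixed genes Trem1, Il1r2, Cd14, G0s2, Ccrl2 and Hdc also persisted, with differences between the later weeks that were not called. Trem1 (chromosome 17, 48232713 to 48246927), a receptor that amplifies inflammatory signals, had 2.36, 3.21 and 7.54 CPM at week 0, 12.5, 33.0 and 51.4 CPM at week 2, and 36.2, 42.9 and 100 CPM at week 4. The week 2 library of replicate 3 at 2 mg/kg was the lowest after week 0, and week 4 overlapped with the upper week 2 libraries. Its log2 fold change was 3.11 ± 0.40 at week 2 and 3.77 ± 0.41 at week 4, both against week 0, and 0.66 ± 0.37 between the later weeks (edgeR adjusted p = 0.498). Il1r2, a decoy receptor for interleukin 1, averaged 31.3 ± 19.2 CPM at week 4 and 17.1 ± 8.08 CPM at week 2. Cd14, the coreceptor for lipopolysaccharide, averaged 167 ± 97.1 CPM at week 4 and 107 ± 29.2 CPM at week 2. G0s2, an inhibitor of lipolysis, averaged 29.2 ± 21.9 CPM at week 4 and 13.8 ± 9.94 CPM at week 2, with a log2 fold change of 0.98 ± 0.40 (adjusted p = 0.383). Ccrl2, a chemokine-binding receptor without known signalling, and Hdc, which makes histamine, gave 0.32 ± 0.32 and 0.20 ± 0.37.

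Tnf and the feedback inhibitor Nfkbia had lower means at week 4 than at week 2. Tnf, a cytokine that activates NF-kappa-B, had 1.34, 2.82 and 3.26 CPM at week 4, against 3.61, 5.69 and 7.48 CPM at week 2. All 6 week 4 libraries were below all 6 week 2 libraries, an order that 1.05% of all tested genes had in this direction. The log2 fold change was -1.08 ± 0.51 (edgeR adjusted p = 0.438), and the scrambled arm had -1.62 ± 0.53. Nfkbia, which encodes the inhibitor that holds NF-kappa-B in the cytoplasm, had 67.5, 100 and 146 CPM at week 4, against 100, 130 and 161 CPM at week 2. The weeks overlapped, and the log2 fold change of -0.42 ± 0.34 had an adjusted p of 0.667, while both weeks were called against week 0, at 2.20 ± 0.36 for week 4 and 2.62 ± 0.36 for week 2. Cxcl1, a neutrophil chemokine, and F3, tissue factor, had no counts in any week 0 library. Against a floor of 6 counts over that group, Cxcl1 was at least 12.1-fold higher at week 4 and at least 12.3-fold higher at week 2. F3 was at least 9.92-fold higher at week 4 and at least 5.98-fold higher at week 2. Neither differed between the later weeks by the test, at -0.50 ± 0.89 and 0.68 ± 0.90.

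**Figure D2:**
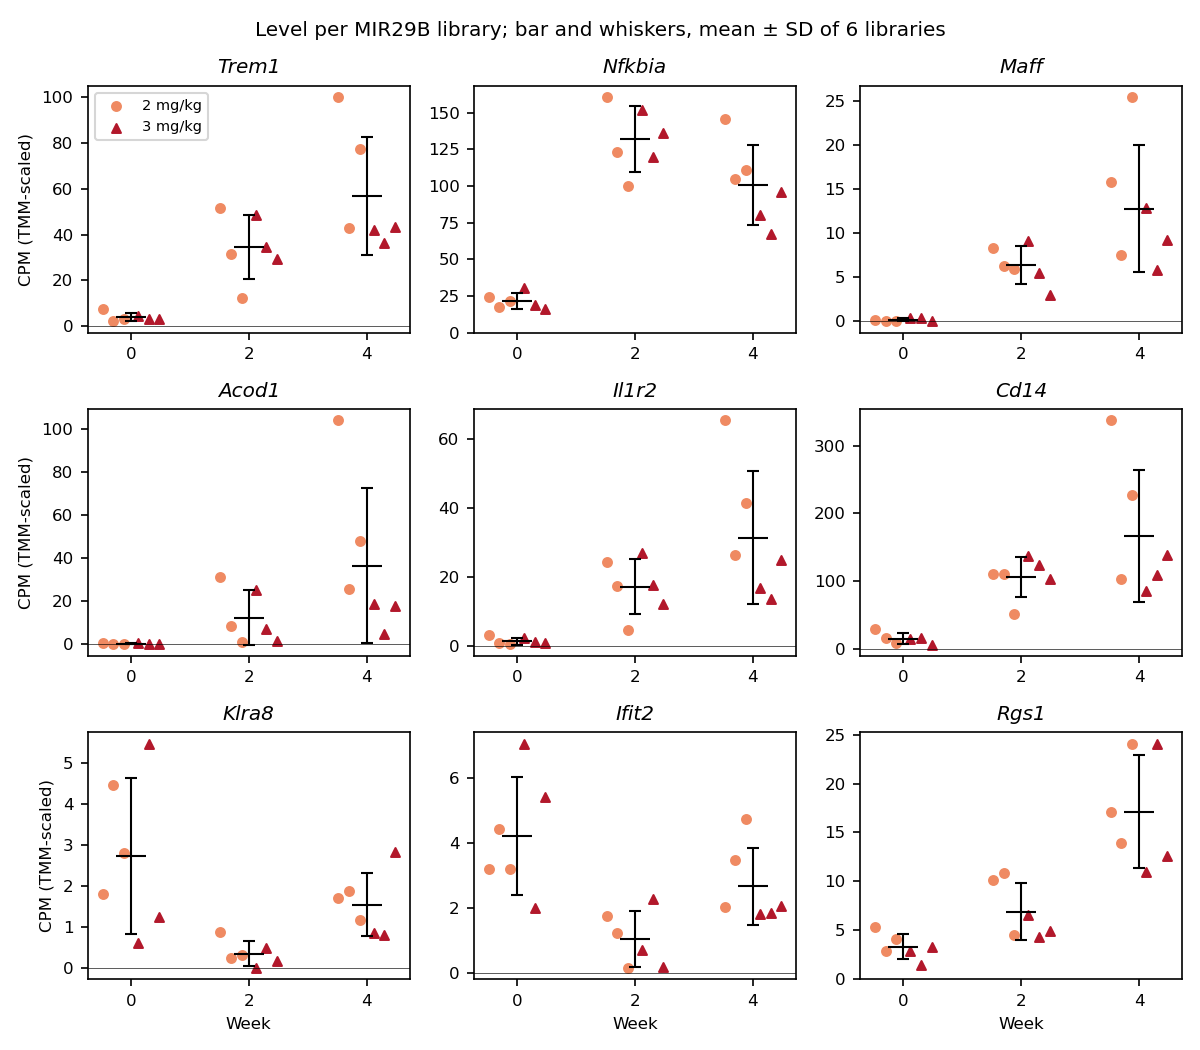
TMM-scaled CPM (linear axes) of 9 genes in the 18 MIR29B libraries at weeks 0, 2 and 4; circles are 2 mg/kg, triangles 3 mg/kg, and bars give the mean ± SD of 6. Trem1, Nfkbia, Maff, Acod1, Il1r2 and Cd14 stay above week 0 at week 4, and Klra8 and Ifit2 are lowest at week 2.

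The promoters of Nfkbia and Cxcl1, 2 of the persisting genes, are shown because both hold a kappa-B motif (GGGA, any base, then TTTCC, searched on both strands), in capitals here. Each runs from 250 bases before to 50 bases after the start in RefSeq GRCm38.p6, on the strand of the gene, at chr12:55492598-55492897 (minus strand) for Nfkbia and at chr5:90890995-90891294 (plus strand) for Cxcl1. The motif was in 126 of 27025 promoters (0.466%), in 3 of 155 promoters of genes that rose early and persisted (1.94%) and in 3 of 18 of the listed NF-kappa-B genes (16.7%). A match describes the letters in this window and was not tested as a binding site.
Nfkbia: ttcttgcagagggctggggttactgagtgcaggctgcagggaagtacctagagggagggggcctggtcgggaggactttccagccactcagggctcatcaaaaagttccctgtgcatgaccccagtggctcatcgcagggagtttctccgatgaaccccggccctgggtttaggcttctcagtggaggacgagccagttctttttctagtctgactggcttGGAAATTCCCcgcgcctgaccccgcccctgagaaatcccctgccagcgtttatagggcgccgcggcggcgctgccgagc
Cxcl1: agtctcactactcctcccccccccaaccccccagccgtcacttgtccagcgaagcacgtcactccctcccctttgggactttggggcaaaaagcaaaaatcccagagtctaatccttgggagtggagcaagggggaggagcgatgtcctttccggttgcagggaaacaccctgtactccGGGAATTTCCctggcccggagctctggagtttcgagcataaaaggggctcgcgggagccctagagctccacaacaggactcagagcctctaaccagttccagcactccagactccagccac

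The medians of 3 inflammatory lists between the later weeks ranged from 0.21 to 0.84 at 2 mg/kg and from -0.14 to 0.12 at the higher dose. No member was called, and no gene was called as differing between the doses. The week 2 group at 2 mg/kg held the libraries with 7.3% and 4.55% ribosomal RNA. In the latter, replicate 3, Ccrl2, Cd14, Ets2 and Hdc lay below all other week 2 libraries and Ier5l above them. The part of these libraries in the difference between doses was not tested. Of 21 tested NF-kappa-B subunits and feedback genes, 16 were higher at week 4, with a median log2 fold change of 0.47, beside 0.06 over all genes. The dose of 2 mg/kg gave a median of 0.78 and that of 3 mg/kg one of 0.12, and 4 members reached an unadjusted p under 0.05 on the higher side (6.25% of all genes), Bcl2a1b, Birc3, Icam1 and Nfkbie. The first 2 oppose cell death, Icam1 is an adhesion molecule, and Nfkbie is another NF-kappa-B inhibitor. Against week 0, 9 of the 21 were called higher at week 4 (2.64% of all genes) and 8 at week 2 (3.45%). Of 37 cytokines, chemokines and inflammatory effectors, 31 were higher at week 4, with a median of 0.39, which split into 0.84 at 2 mg/kg and -0.04 at the higher dose. At an unadjusted p under 0.05, 6 were on the higher side and 2 on the lower side (4.79% of all genes), Tnf and Cish, an inhibitor of cytokine signalling. Against week 0, 19 of them were called at week 4 and 17 at week 2. With offsets for GC content and length, 26 of the 37 were higher at week 4 than at week 2, at a median of 0.35. Ptgs2, the inducible prostaglandin synthase, averaged 8.78 ± 6.33 CPM at week 4 and 2.58 ± 1.51 CPM at week 2, without overlap (0.711% of all genes). Cxcl3, a neutrophil chemokine, gave 2.74 ± 0.82 and Hif1a, a transcription factor of the response to low oxygen, 1.06 ± 0.35, both with an unadjusted p under 0.05 and an edgeR adjusted p of 0.284 and 0.319. Of 33 immediate early and AP-1 genes, 12 were called higher at week 4 and 12 at week 2 against week 0, and their median between the later weeks was 0.01 (at 2 mg/kg 0.21, at the higher dose -0.14). At an unadjusted p under 0.05, 2 were on the higher side and 1 on the lower side. Their summed level was 1450, 2200 and 2890 CPM (lowest, median and highest) at week 4, against 2330, 2460 and 3000 CPM at week 2. The scrambled arm had medians of 0.12, 0.05 and 0.00 for the 3 lists.

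Among cell types that carry these genes, neutrophil markers had the higher median at 2 mg/kg, as the 3 lists did. Monocyte markers had it at 3 mg/kg. The summed level of 31 neutrophil markers ranged from 871 to 1980 CPM at week 4 and from 1040 to 2200 CPM at week 2. It ranged from 309 to 814 CPM at week 0, below all later libraries. The median log2 fold change of the list between the later weeks was -0.20 (at 2 mg/kg 0.25, at the higher dose -0.67). At an unadjusted p under 0.05, 1 member was on each side. The scrambled arm had a median of -0.57, with 10 members at that level on the lower side (6.14% of all genes) and 0 on the higher side. Against week 0, 10 of the 31 were called higher at week 4 (2.64% of all genes) and 14 at week 2 (3.45%). The summed level of 25 monocyte and macrophage markers ranged from 667 to 989 CPM at week 4 and from 357 to 823 CPM at week 2. At week 0 it ranged from 398 to 740 CPM, which overlapped both later weeks. All 25 were higher at week 4 than at week 2, with a median of 0.50 (at 2 mg/kg 0.31, at the higher dose 0.53) beside 0.02 in the scrambled arm. Of them, 6 had an unadjusted p under 0.05 (6.25% of all genes on the higher side), among them Adgre4, Ccr2, Ctss, Klf4 and Ms4a6c. Ccr2, the receptor that brings monocytes out of the marrow, had a log2 fold change of 1.16 ± 0.41. The part of these markers in the inflammatory results was not tested.

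Taken as the median log2 difference from week 0 over each list, NK cell and interferon genes were lowest at week 2. All 27 tested NK cell markers were higher at week 4 than at week 2, with a median log2 fold change of 1.15. Of the 27, 9 had an unadjusted p under 0.05 (6.25% of all genes on the higher side). Their summed level ranged from 78.1 to 127 CPM at week 4 and from 32.8 to 75.7 CPM at week 2, so the weeks did not overlap, while week 0 ranged from 74.3 to 187 CPM. The scrambled arm showed a median of 1.01 for the same list, with 12 at an unadjusted p under 0.05 on the higher side (4.67% of all genes). Klra8, an NK cell receptor, had 0.796, 1.44 and 2.83 CPM at week 4, against 0.0, 0.279 and 0.878 CPM at week 2. It was called lower at week 2 against week 0 (-2.96 ± 0.70, edgeR adjusted p = 0.00995). Week 4 against week 2 gave 2.16 ± 0.69 (adjusted p = 0.306), and week 4 against week 0 gave -0.80 ± 0.62 (adjusted p = 0.545). Gzmb, a granzyme of cytotoxic cells, averaged 6.01 ± 1.71 CPM at week 4 and 2.33 ± 1.22 CPM at week 2, and Gzma 22.4 ± 6.71 CPM at week 4 and 10.3 ± 5.21 CPM at week 2. Klra genes are a multigene family whose members share sequence, so counts may be split among them.

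Of 50 interferon-stimulated genes, 41 were higher at week 4 than at week 2, with a median of 0.39 in the MIR29B arm and 0.38 in the scrambled arm. Their summed level, which the most abundant members weigh on most, was not higher. It had a median of 17500 CPM at week 4 (15000 to 23400) and 19300 CPM at week 2 (14100 to 23400). Against week 0, 1 of the 50 was called lower at week 4 (0.443% of all genes) and 8 at week 2 (1.99%). Ifit2, which binds viral RNA, had 1.83, 2.04 and 4.76 CPM at week 4, against 0.156, 0.966 and 2.29 CPM at week 2, with a log2 fold change of 1.22 ± 0.47 (edgeR adjusted p = 0.361). Gbp7, an interferon-induced GTPase, gave 0.94 ± 0.40. Among the 21 genes that fell early and persisted were 3 genes chosen here after their values were seen. These were the interferon-inducible genes Ifi47 and Ifi209 and Cxcr5, the receptor that guides B cells into follicles. Ifi47 averaged 7.25 ± 1.85 CPM at week 4 and 7.02 ± 2.44 CPM at week 2, and Cxcr5 averaged 2.11 ± 1.05 CPM at week 4 and 2.33 ± 1.03 CPM at week 2. Of 22 B cell markers, 3 were called lower at each week against week 0, beside the same shares of all genes. Their median between the later weeks was -0.15 beside -0.27 in the scrambled arm. Cr2, a complement receptor of B cells, was called lower at week 2 (-1.74 ± 0.45) and stood at -1.30 ± 0.44 at week 4 (edgeR adjusted p = 0.095). The 22 T cell markers had a median of -0.01.

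The undecided genes with the largest early change were Ier5l, Mgam and Reep6, which rose early, and Klra8, Angpt1 and Arsk, which fell. Angpt1, a ligand of the Tie2 receptor carried by platelets and stem cells, had 0.282, 1.33 and 2.73 CPM at week 4, against 0.0, 0.232 and 0.585 CPM at week 2. Its log2 fold change of 2.25 ± 0.62 had an edgeR adjusted p of 0.284, and the scrambled arm had 0.40 ± 0.57. Arsk, a lysosomal sulfatase, gave 2.29 ± 0.55, with week 4 libraries between 0.265 and 1.72 CPM and week 2 libraries between 0.0 and 0.573 CPM. The week 2 groups held only 36 counts of Angpt1 and 30 of Arsk in all. Ier5l, an immediate early gene relative, Reep6, an endoplasmic reticulum shaping protein, and Mgam, a maltase and glucoamylase, gave -0.82 ± 0.69, -1.16 ± 0.71 and -0.07 ± 0.68.

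The 6 smallest p-values between the later weeks belonged to Rgs1, Ogfrl1, Fam204a, Smarca5, Gsto1 and Rock1. Rgs1, a regulator of G protein signalling in lymphocytes and myeloid cells, had 11, 15.5 and 24.1 CPM at week 4, against 4.30, 5.77 and 10.9 CPM at week 2. All week 4 libraries were above all week 2 libraries. It also rose early, at 1.05 ± 0.30 (edgeR adjusted p = 0.0315). Between the later weeks it gave 1.35 ± 0.29 (adjusted p = 0.183). The scrambled arm had 1.06 ± 0.29. Smarca5, an ATPase of chromatin remodelling complexes, averaged 14.1 ± 3.45 CPM at week 4 and 5.8 ± 1.98 CPM at week 2, without overlap. Fam204a averaged 14.6 ± 2.96 CPM at week 4 and 6.55 ± 0.858 CPM at week 2, also without overlap, and had fallen early (-1.15 ± 0.25). Rock1, a kinase that acts on the actin cytoskeleton, averaged 13.5 ± 4.12 CPM at week 4 and 5.69 ± 2.54 CPM at week 2. Ogfrl1 averaged 50.3 ± 19.0 CPM at week 4 and 22.3 ± 3.97 CPM at week 2. Gsto1, a glutathione transferase, was the one lower at week 4, with 14.6 ± 3.43 CPM against 29.5 ± 6.39 CPM at week 2, and had risen early (0.97 ± 0.24). In all, 85 genes had every week 4 library above every week 2 library (0.711%) and 126 the reverse (1.05%), against 13 (0.109%) and 19 (0.159%) in the scrambled arm.

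The same week 4 and week 2 libraries fitted alone, with dose and week as terms, gave 99 called genes of 10912 (0.907%), 31 higher (0.284%) and 68 lower (0.623%) at week 4. All 99 had an unadjusted p under 0.05 in the fit to 36 libraries, and 94 had the same sign in the scrambled arm. This count ranged from 0 to 669 when each library was left out in turn. It was 0 without replicates 2 and 3 of week 2 at 2 mg/kg, those with the most ribosomal RNA. With offsets for GC content and length 52 genes were called, of which 17 were among the 99. The 31 higher genes had a median GC content of 40.5% and a median length of 4545 bases. The 68 lower genes had 55.1% and 1201 bases, beside 50.2% and 2845 bases for all genes. Alad, the second enzyme of heme synthesis, had 6.21, 13.9 and 27.7 CPM at week 4, against 38.6, 49.2 and 72.3 CPM at week 2. The weeks were fully apart (1.05% of all genes in this direction). Its log2 fold change in the 12 libraries was -1.94 ± 0.29 (edgeR adjusted p = 0.0135), a call made in 8 of 12 fits that left out a library. Chchd10, a mitochondrial protein, averaged 39.1 ± 15 CPM at week 4 and 108 ± 12.1 CPM at week 2 (-1.51 ± 0.24, adjusted p = 0.0169). Fdps, an enzyme of cholesterol synthesis, averaged 4.91 ± 1.90 CPM at week 4 and 14.2 ± 3.73 CPM at week 2 (-1.63 ± 0.27, adjusted p = 0.0182). Hmox1, which degrades heme, averaged 7.19 ± 2.16 CPM at week 4 and 16.6 ± 3.58 CPM at week 2. On the higher side were Skil, a regulator of TGF-beta signalling (1.72 ± 0.35), and Tiparp, an ADP-ribosyltransferase (1.5 ± 0.28). The scrambled arm had log2 fold changes of -2.1 for Alad, -0.77 for Chchd10, -1.55 for Fdps and -1.01 for Hmox1. For Skil and Tiparp it had 1.34 and 0.54.

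Red cell genes lay lower at week 4, with no member called in the fit to 36 libraries. Of 32 heme synthesis and iron genes, 24 were lower, with a median of -0.45 beside -0.19 in the scrambled arm. In that arm 6 were on the lower side and 4 on the higher side at an unadjusted p under 0.05 (6.14% and 4.67% of all genes). The MIR29B arm had 0 on the higher side. On the lower side of the MIR29B arm 4 had an unadjusted p under 0.05 (4.79% of all genes): Alad, Erfe, Hmox1 and Slc25a38. Erfe, the erythroid hormone that lowers hepcidin, averaged 0.409 ± 0.443 CPM at week 4 and 1.61 ± 0.876 CPM at week 2 (-2.13 ± 0.70). Alas2 itself gave 0.15 ± 0.23. Of 33 red cell membrane and volume genes, 23 were lower, with a median of -0.29 beside 0.08 in the scrambled arm. Ank1, which anchors the membrane skeleton, averaged 151 ± 56.7 CPM at week 4 and 252 ± 101 CPM at week 2. It had risen early (1.39 ± 0.32, edgeR adjusted p = 0.00884) and stood at 0.66 ± 0.32 at week 4 against week 0 (adjusted p = 0.283). Slc2a1, a glucose transporter, persisted, with 20.3 ± 5.22 CPM at week 4 and 13.7 ± 3.12 CPM at week 2. Of 44 reticulocyte maturation genes, 32 were lower at week 4 with a median of -0.21, and 6 had an unadjusted p under 0.05 on the lower side (4.79% of all genes). In the scrambled arm 28 of the 44 were higher at week 4, with a median of 0.29. There, 10 were at an unadjusted p under 0.05 on the higher side (4.67% of all genes). Psmf1, a proteasome inhibitor on this list, averaged 214 ± 49.4 CPM at week 4 and 349 ± 57.0 CPM at week 2.

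Ribosomal protein and respiratory chain genes had negative medians, which were smaller once GC content and length were offset. Of 85 ribosomal protein genes, 83 were lower at week 4, with a median of -0.48 (at 2 mg/kg -0.76, at the higher dose -0.18), and 9 had an unadjusted p under 0.05 on the lower side, beside 4.79% of all genes. With the offsets their median was -0.14 and 33 of the 85 were higher. The scrambled arm had a median of -0.15 for them without the offsets. Of 92 genes of the respiratory chain and ATP synthase, 90 were lower, with a median of -0.66 beside -0.47 in the scrambled arm, and 23 had an unadjusted p under 0.05. With the offsets 81 were lower, at a median of -0.38. Proteasome subunits had a median of -0.43 beside -0.52 in the scrambled arm, with 32 of 38 lower. The last 2 lists were added after the values had been seen. Of 26 platelet and megakaryocyte markers, 20 were lower, with a median of -0.53 beside -0.38 in the scrambled arm. At an unadjusted p under 0.05, 8 were on the lower side and 2, P2ry12 and Rgs18, on the higher side. Of 29 oxidative stress and NRF2 genes, 23 were lower at a median of -0.49, beside -0.46 in the scrambled arm.

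**Figure D3:**
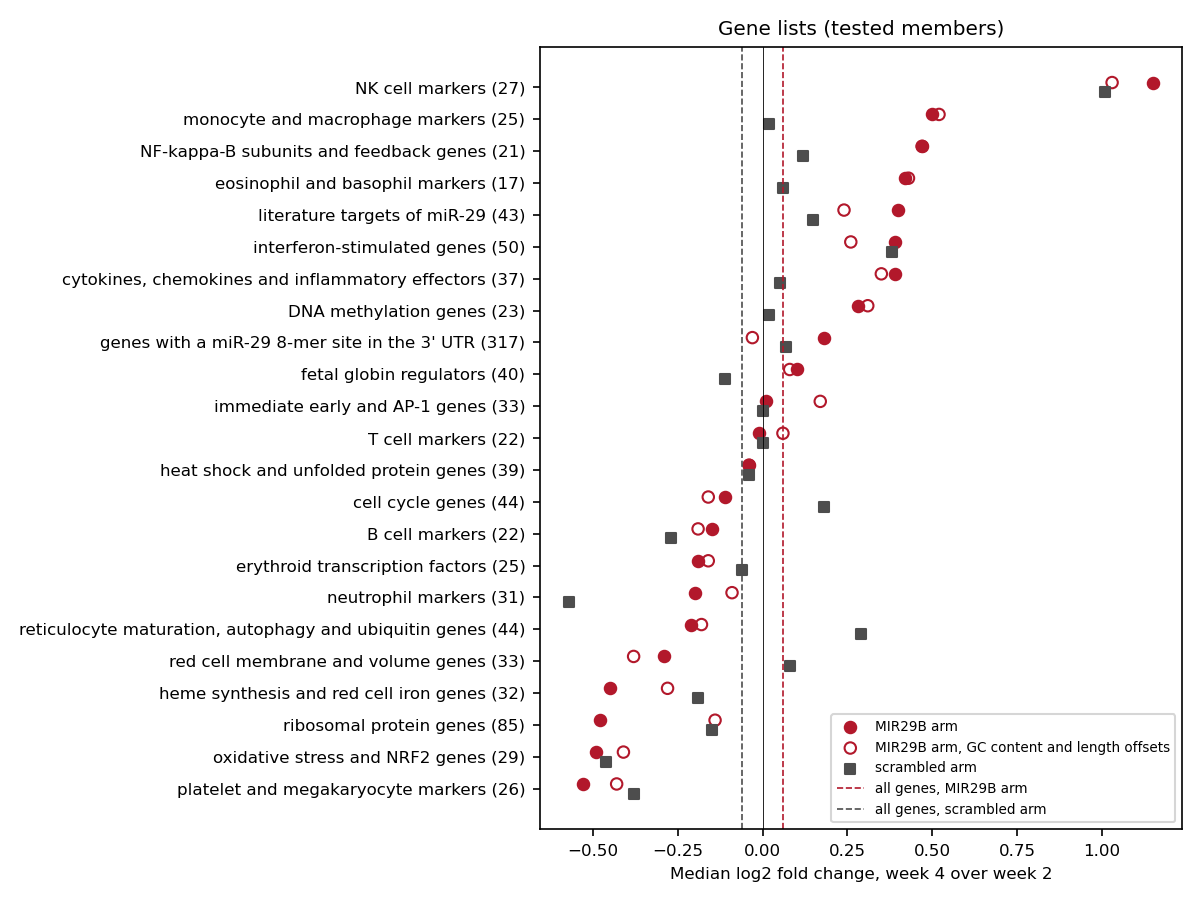
Median log2 fold change, week 4 against week 2, over the tested members of each gene list; filled red, MIR29B arm; open red, the same with GC content and length offsets; grey squares, scrambled arm; dashed lines, all genes of each arm. NK cell markers lie highest at 1.15, and the ribosomal protein median moves from -0.48 without to -0.14 with the offsets.

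The differences between the weeks also varied with the base composition and length of transcripts. Across 11785 genes the log2 fold change between week 4 and week 2 had a Spearman correlation of -0.38 with GC content and of 0.38 with transcript length, given as a description since genes are not independent and share the libraries. The median was 0.57 in the decile of genes with the lowest GC content and -0.18 in the highest, and it was -0.43 in the shortest decile and 0.41 in the longest. The scrambled arm had correlations of -0.31 and 0.26. The difference in median level between the highest and the lowest GC decile was taken in each library, relative to the average of all libraries. MIR29B libraries ranged from -0.51 to -0.20 at week 0, 0.14 to 0.86 at week 2 and -0.39 to 0.37 at week 4. Scrambled libraries ranged from -0.41 to -0.08 at week 0, -0.52 to 0.96 at week 2 and -0.36 to -0.08 at week 4. With offsets for both features, 0 genes were called between the later weeks (974 at an unadjusted p under 0.05, 3.91% higher and 4.24% lower), and the medians were 1.03 for NK markers, 0.52 for monocyte markers, 0.47 for NF-kappa-B genes, -0.38 for respiratory chain genes and -0.14 for ribosomal protein genes. The early calls became 374 (3.13%), 270 higher (2.26%) and 104 lower (0.87%), of which 260 were among the 650, and 221 persisted, 144 of them among the 217.

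**Figure D4:**
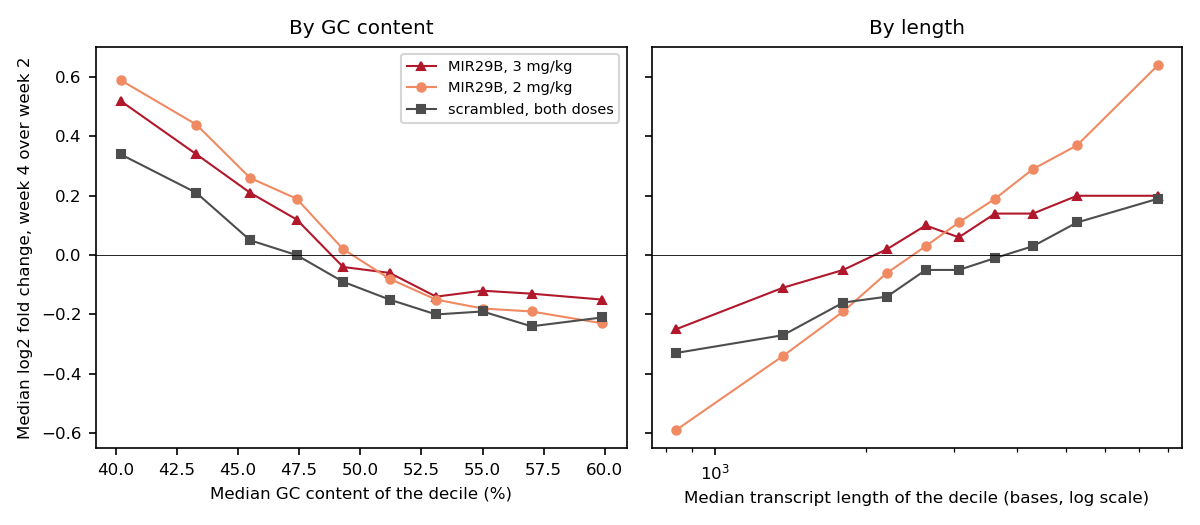
Median log2 fold change, week 4 against week 2, in deciles of the tested genes by GC content and by transcript length, for MIR29B at 3 mg/kg (triangles), MIR29B at 2 mg/kg (circles) and the scrambled arm (squares). From the lowest to the highest GC decile the median runs from 0.52 to -0.15 at 3 mg/kg and from 0.59 to -0.23 at 2 mg/kg; from the shortest to the longest decile it runs from -0.25 to 0.20 at 3 mg/kg and from -0.59 to 0.64 at 2 mg/kg.

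The named target and the other DNA methylation genes gave no call between week 4 and week 2. Dnmt3a (chromosome 12, 3801559 to 3914443), a de novo DNA methyltransferase whose site is printed above, had 1.06, 3.97 and 4.97 CPM at week 4, against 0.56, 1.95 and 3.94 CPM at week 2. The weeks overlapped, with 484 counts at week 4 and 286 at week 2, and the log2 fold change was 0.65 ± 0.52 (edgeR adjusted p = 0.659), while the scrambled arm had -0.24 ± 0.53. Dnmt1, the maintenance methyltransferase, averaged 27.1 ± 6.59 CPM at week 4 and 42.0 ± 20.5 CPM at week 2 (-0.62 ± 0.34, adjusted p = 0.489). Dnmt3b averaged 0.448 ± 0.247 CPM at week 4 and 0.354 ± 0.374 CPM at week 2. Tet2, which oxidises methylated cytosine, averaged 3.03 ± 1.63 CPM at week 4 and 1.63 ± 1.21 CPM at week 2. Of 23 DNA methylation genes, 17 were higher at week 4, with a median of 0.28 beside 0.02 in the scrambled arm. Their summed level lay the other way, with a median of 1290 CPM at week 4 (790 to 1720) and 1740 CPM at week 2 (1280 to 2350). At an unadjusted p under 0.05, 2 members were on the higher side, Hells and Zbtb33, and 1 on the lower side, Uhrf1, shares near the 6.25% and 4.79% of all genes. Uhrf1, which brings Dnmt1 to replicated DNA, averaged 2.78 ± 1.56 CPM at week 4 and 7.58 ± 3.68 CPM at week 2 (-1.5 ± 0.49, adjusted p = 0.319). Hells, a chromatin remodeller needed for DNA methylation, rested on 46 counts at week 4 and 4 at week 2. Gadd45b, a stress gene linked to demethylation, was the one member that persisted, at 22.7 ± 7.28 CPM at week 4 and 23.9 ± 9.20 CPM at week 2.

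**Figure D5:**
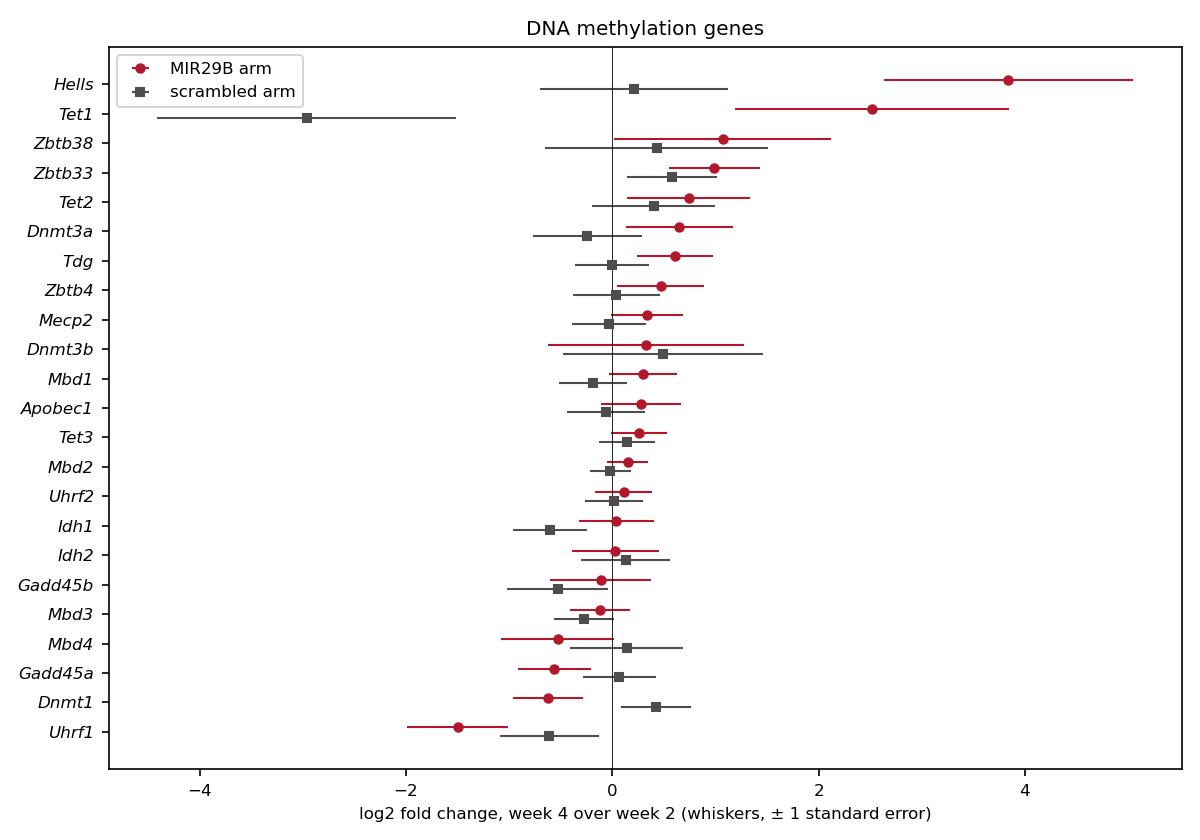
Log2 fold change ± SE, week 4 against week 2, of the tested DNA methylation genes in the MIR29B arm and the scrambled arm. No gene is called in either arm, and 17 of 23 lie above 0 in the MIR29B arm.

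Predicted and literature targets of miR-29 gave no called gene in the fit to 36 libraries, and in the 12 libraries alone 1 gene with the site was called higher, Zdhhc21, a palmitoyltransferase (1.47 ± 0.33, edgeR adjusted p = 0.0469). That call was made in 2 of 12 fits that left out a library, and with the offsets Zdhhc21 gave 0.60 (edgeR adjusted p = 0.506). Of 43 tested literature targets, 35 were higher at week 4, with a median of 0.40, or 0.24 with the offsets for GC content and length, beside 0.15 in the scrambled arm. The 8-letter site was in 431 of 15178 genes with an annotated 3′ UTR, and in 317 of the tested ones (2.81% of 11292). Of these 317, 208 were higher at week 4, with a median of 0.18 that became -0.03 with the offsets. At an unadjusted p under 0.05, 28 were on the higher side and 6 on the lower side, beside 6.25% and 4.79% of all genes. Mcl1, a survival protein of the BCL2 family with the site shown, averaged 192 ± 49.4 CPM at week 4 and 175 ± 31.1 CPM at week 2 (0.11 ± 0.25). Nasp, a histone chaperone, was the one literature target at an unadjusted p under 0.05, with 3.95 ± 1.23 CPM at week 4 and 2.31 ± 0.546 CPM at week 2. Fetal globin regulators had a median of 0.10 over 40 genes, while their summed level had a median of 950 CPM at week 4 and 1190 CPM at week 2. Bcl11a, the main repressor of fetal globin, gave 0.01 ± 0.44, made up of -0.93 at 2 mg/kg and 0.95 at the higher dose. The erythroid factors Klf1 and Gata1 gave -0.33 ± 0.42 and -0.26 ± 0.29.

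No gene was called as changing differently between the arms. Of 11953 genes, 0 were called by edgeR, 427 had an unadjusted p under 0.05 (1.97% higher and 1.61% lower) and DESeq2 called 0. The smallest p-values, all with an adjusted p of 1, belonged to Psmf1, Cit, Foxo3, Isyna1, Larp1b and R3hdm1, each lower at week 4 in the MIR29B arm and higher in the scrambled arm. Foxo3, a transcription factor of red cell maturation, averaged 65.8 ± 18.4 CPM at week 4 and 104 ± 19.6 CPM at week 2 with MIR29B, and 78.7 ± 14 CPM at week 4 and 49.4 ± 10.6 CPM at week 2 with the scrambled control. Cit, a kinase of cell division, gave -0.41 ± 0.47 with MIR29B and 2.32 ± 0.51 with the scrambled control. Between week 4 and week 2 the scrambled arm had 0 called genes by edgeR, 1292 at an unadjusted p under 0.05 (4.67% higher and 6.14% lower) and 38 by DESeq2 (1.05% of 3610).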

How the data were processed

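RNA sequencing counts of peripheral blood were analysed, 12 libraries of 36. The deposited table holds raw read counts per RefSeq transcript, not normalised by the authors; GRCm38, HISAT2 2.0.5 and featureCounts 1.5.0-p3 are listed in the submitters' processing notes. The annotation release, strand setting and handling of mates are not given in the sources used here. All counts were even (0 odd values). Of 25856 transcripts, 25645 were matched to RefSeq symbols, 137 to GENCODE and 74 to none. The transcript with the highest total stood for each of 16812 genes, entries without a symbol included. These held 1.9% to 14.5% of the gene counts of the 12 libraries and stayed in the scaling. Genes passing filterByExpr (minimum count 10, minimum total 15) numbered 11953. Levels are TMM-scaled CPM. edgeR 4.0.16 in R 4.3.3 fitted 12 groups of 3 libraries with quasi-likelihood, contrasts averaging both doses, and p-values were adjusted by Benjamini-Hochberg within each contrast. The common dispersion was 0.25. The standard error of a fold change came from its size on the log2 scale and the F statistic. Alternatives used DESeq2 1.42.0, other scaling, filters, samples and terms, among them offsets for GC content and transcript length from smooth trends. The code was tested on simulated data. Floors of 6 counts cover counting error alone. The members, gene lists and tests were chosen with earlier results of these data known. Genes named are 26 fixed genes, the 6 largest early changes per course with a mean of at least 1 CPM, the 6 smallest p-values per contrast and up to 4 called members per list. Members named for an unadjusted p under 0.05, and genes called in the 12 libraries alone, were chosen after their values were seen.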

Additional observations from a re-analysis of the deposited data

Results flagged for a closer look

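Gaps between libraries were measured on log2(CPM + 1) within the groups of 6 MIR29B libraries at week 4 or week 2. In 11 of 132 gene and week combinations, 1 library lay over 0.625 of the range of the group from the nearest other. Chance gives about 1 in 20 for independent, normally distributed values, while genes measured in the same library are not independent. Of the 11, 6 were in replicate 3 of week 2 at 2 mg/kg. In that library Ccrl2 had 8.88 CPM (20.2 to 30.2 in the other 5), Cd14 52.2 CPM (104 to 137), Ets2 13.2 CPM (36.7 to 49.0), Gsto1 17.9 CPM (27.6 to 35.2) and Hdc 11.2 CPM (19.8 to 27.5), all lower, and Ier5l had 5.45 CPM (1.12 to 2.14). Replicate 1 of week 2 at 3 mg/kg had 69.8 CPM of Csrnp1 (35.0 to 44.9), and replicate 2 of that group had 0.955 CPM of Grin3a, with 0.0 elsewhere. At week 4 and 3 mg/kg, replicate 1 had 2.40 CPM of Hmgn5 (7.42 to 8.16) and 1.34 CPM of Tnf (2.41 to 3.26), and replicate 2 had 0.265 CPM of Arsk (1.20 to 1.72).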

How the results depend on the processing

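Week 4 against week 2 in the MIR29B arm had 0 called genes, and also with RLE size factors, a ribosomal RNA term, a Y-linked term, GC content and length offsets, or all 18 MIR29B libraries. It had 42 with DESeq2, 121 with no filter on low counts and 99 in the 12 libraries alone; leaving out 1 library gave 0 to 6, with 1 without week 2 2 mg/kg replicate 1 and 6 without week 2 3 mg/kg replicate 2. With a replicate block in the 12 libraries it was 195, but whether the numbers pair the samples is not known, and sex-linked transcripts differed for replicate 2. Deviations from group means correlated between -0.20 and 0.23 in same-numbered samples and between -0.22 and 0.16 in the others. With no filter, 2 genes differed between doses and 2 between arms; leaving out 1 library gave 0 to 1 for doses. The 99 became 628 with DESeq2, 558 with no filter, 52 with the offsets (17 of them among the 99) and 13 with the Y-linked term. The count was 0 without both libraries richest in ribosomal RNA. Leaving out each library moved it over 1.5 times in 11 of 12 fits. It was 0 without week 2 2 mg/kg replicate 2, or without week 4 2 mg/kg replicate 1 or 3. It was 669 without week 2 3 mg/kg replicate 2. The 650 early calls became 1095 with DESeq2, 979 in 18 libraries, 374 with the offsets and 293 to 681 with 1 library left out: 346 and 293 without week 0 replicate 3 at 2 and 3 mg/kg, 377 without week 2 2 mg/kg replicate 1, 361 without week 2 3 mg/kg replicate 3. The 369 later calls became 782 (DESeq2), 735 (no filter), 568 (18 libraries) and 196 to 535 with 1 library left out, falling over 1.5 times without week 0 replicates 2 or 3 at 2 mg/kg (206, 224) or 3 mg/kg (233, 196), or week 4 replicate 1 at 2 or 3 mg/kg (211, 239). Scrambled early calls (384) became 948 (DESeq2), 902 (no filter), 37 (ribosomal RNA term) and 42 to 950; scrambled calls of week 4 against week 2 (0) became 38 (DESeq2), 97 (no filter) and 0 to 109. The 217 persisting genes became 400 (DESeq2), 328 (no filter) and 109 to 298, with 128 and 130 without week 0 2 mg/kg replicates 2 and 3 and 109 without week 0 3 mg/kg replicate 3. Faded genes numbered 29 with DESeq2, 37 with no filter and 0 to 6 with 1 library left out; grown genes 1 with DESeq2 and 4 with no filter. The cause was not tested. Of 942 values of 41 named genes under the alternatives, 30 in 9 genes reversed, none of them called: B3gnt7 0.03 (ribosomal RNA term), 0.42 (without both ribosomal RNA libraries) and -0.93 to 0.16 (1 left out); Bcl11a -0.01 (DESeq2, RLE and 12 libraries), -0.07 (without libraries over 5% ribosomal RNA), -0.70 (offsets) and -0.22 to 0.36 (1 left out); Cr2 -0.38 (offsets); with 1 left out, Dnmt3b -0.03 to 1.02, F3 -0.21 to 0.97 and Hdc -0.10 to 0.32; Klf1 0.02 and 0.04, Mcl1 -0.06 and -0.02 (without both ribosomal RNA libraries, offsets); Mgam 0.12 (block), 0.30 (18 libraries) and -0.56 to 0.39 (1 left out). In simulated counts, 12 of 100 changes of 2-fold were called.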
